A study of Rattus norvegicus with 6 samples.

Results

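Chromatin precipitated with the M2 antibody was compared between a PC12 line with human α1ACT and a PC12 line with the empty vector only. PC12 is a line from a rat pheochromocytoma, a tumour of the adrenal medulla. One line stably expressed human α1ACT, and the labels title it Q11. The other stably expressed the empty pCDNA3 vector (EV). Both were used at passages 18 to 20, and the labels do not say whether either line is 1 clone or a pool. The series holds 6 samples, with M2, the antibody labelled 1804 and an input for each line. Its 4 peak lists were all used here. Each group is 1 library, so the comparison is descriptive: no value has a replicate error and no test between the lines can be made. The members are the peaks of both M2 lists, 81 from α1ACT cells and 244 from EV cells, chosen by list alone. Joined by an overlap of at least 1 bp, they make 255 sites, out of 162327 peaks in the 4 lists of the series.

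M2 is a monoclonal antibody against the FLAG epitope, a short peptide tag that is fused to a protein so that one antibody can capture it. The labels do not say that the α1ACT construct carries the tag. α1ACT is a transcription factor translated from within the CACNA1A transcript, whose main product is the pore subunit of the P/Q-type calcium channel. In a tag precipitation, the cells with the empty vector measure what is recovered without the tagged protein. The question of the comparison is therefore which places are listed in α1ACT cells and not in EV cells. The antibody labelled 1804, whose target the labels do not give, offers a further reading of the same lines.

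The M2 list of α1ACT cells lay almost wholly inside that of EV cells. Of its 81 peaks, 70 overlapped an EV M2 peak and 11 did not (13.6%, exact 95% binomial interval 6.98 to 23.0). Of the 244 EV M2 peaks, 70 overlapped an α1ACT M2 peak and 174 did not (71.3%, 65.2 to 76.9). The list lengths alone leave at least 163 of the 244 unshared (66.8%). When the EV M2 list was shortened to its 81 highest peaks, 54 of 81 were shared (66.7%). These intervals cover counting error only. The read depth of each library is unknown.

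The shared peaks lay at the same place to within a few bases. Every peak was 56 bp wide. The centres of the 70 pairs were a median of 1 bp apart, 17 pairs were identical, and 62 were at most 3 bp apart (88.6%, 78.7 to 94.9). The widest offset was 24 bp, at chromosome 1 from 188121927 to 188121982, and the next was 10 bp. Every pair overlapped by more than 28 bp.

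Of the 11 α1ACT M2 peaks without an EV M2 partner, 7 lay on the mitochondrial genome and 4 on the chromosomes. The highest-signal peak of the list was among the 4. It lay on chromosome 10 from 110277977 to 110278032 in build rn5, inside Tbcd, which encodes a cofactor that folds tubulin. In the authors' deposited table this position is intron 13 of 38 of a transcript on the plus strand that runs from 110229296 to 110384468, and it lies 48736 bp from the transcription start site (TSS). The authors' signal, their own value per peak, was 371 with M2 and 899 with 1804 in α1ACT cells, rank 1 in both lists, and neither EV list held a peak there. The nearest peak was 514 kb away in the EV M2 list and 1156 kb away in the EV 1804 list. Around it, the α1ACT 1804 list held 12 more peaks within Tbcd, with signals up to 13.2. The nearest was 11513 bp away.

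The 3 other chromosomal peaks were all present in both 1804 lists. One, on chromosome 20 from 40336637 to 40336692, was 337 kb from the nearest TSS in the authors' table, that of the heat shock transcription factor gene Hsf2. It had a signal of 64.7 and rank 66 in the α1ACT M2 list, rank 127 in the EV 1804 list and rank 86 in the α1ACT 1804 list. The remaining pair of peaks missed an EV M2 peak narrowly. A peak at chromosome 1 from 264129 to 264184 was 31 bp from one, and a peak at chromosome 1 from 187793337 to 187793392 was 93 bp from one. At both places the 1804 lists held the position of the α1ACT M2 peak and not that of the EV M2 peak. With these counted as shared, 72 of the 74 chromosomal α1ACT M2 peaks had an EV M2 counterpart (97.3%, 90.6 to 99.7). The Tbcd site was then the only chromosomal M2 peak of α1ACT cells that neither EV list held within 100 bp.

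**Figure D1:**
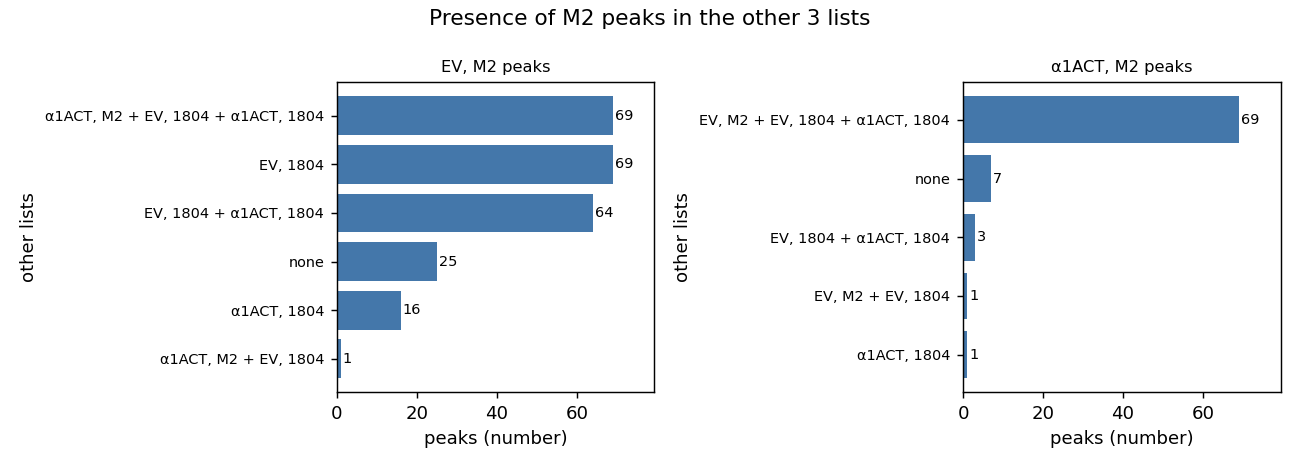
Number of peaks of the EV M2 list (left) and the α1ACT M2 list (right) by which of the other 3 lists hold an overlapping peak; each bar is a count from 1 library. In the α1ACT M2 list 69 of 81 peaks were in all 4 lists, whereas in the EV M2 list 69 were in all 4 and 69 were otherwise only in the EV 1804 list.

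Mitochondrial peaks were the other feature that set the α1ACT M2 list apart. It held 7, which is 8.64% of its peaks (3.55 to 17.0). The EV M2 list and the α1ACT 1804 list held 1 each, and the EV 1804 list held 0 of 272. From the first base of the mitochondrial sequence, the 7 peaks started at 2934, 4883, 12376, 13694, 15095, 15318 and 15730. Their signals in that order were 65.5, 73.3, 65.1, 68.0, 59.3, 58.0 and 302. The last peak, at 15730 to 15785, had rank 7 of 81, and the other 6 had ranks 59 to 76. The EV M2 peak lay at 16093 to 16148, 307 bp beyond the highest α1ACT M2 peak, with a signal of 57.2 and rank 121 of 244. The α1ACT 1804 peak lay at 16209 to 16264, with a signal of 66.6 and rank 100. None of the 7 positions was therefore seen with the 1804 antibody in the same cells, and no 2 lists shared a mitochondrial peak. The authors' table holds no mitochondrial gene, so no annotation is given for these peaks.

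The EV M2 peaks that were shared were mostly those of high signal. Among ranks 1 to 61 of the EV M2 list, 46 of 61 peaks were shared (75.4%, 62.7 to 85.5). The count was 18 of 61 for ranks 62 to 122, 4 of 61 for ranks 123 to 183 and 2 of 61 for ranks 184 to 244. The share in the EV 1804 list changed less over the same 4 rank classes, with 60, 58, 45 and 40 of 61. For the α1ACT 1804 list the counts were 45, 37, 35 and 32 of 61. The shared EV M2 peaks had a median rank of 45.5 and the unshared a median of 155.5. In the α1ACT M2 list 38 of the 40 highest peaks were shared, and the exceptions were the Tbcd site and the highest mitochondrial peak.

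**Figure D2:**
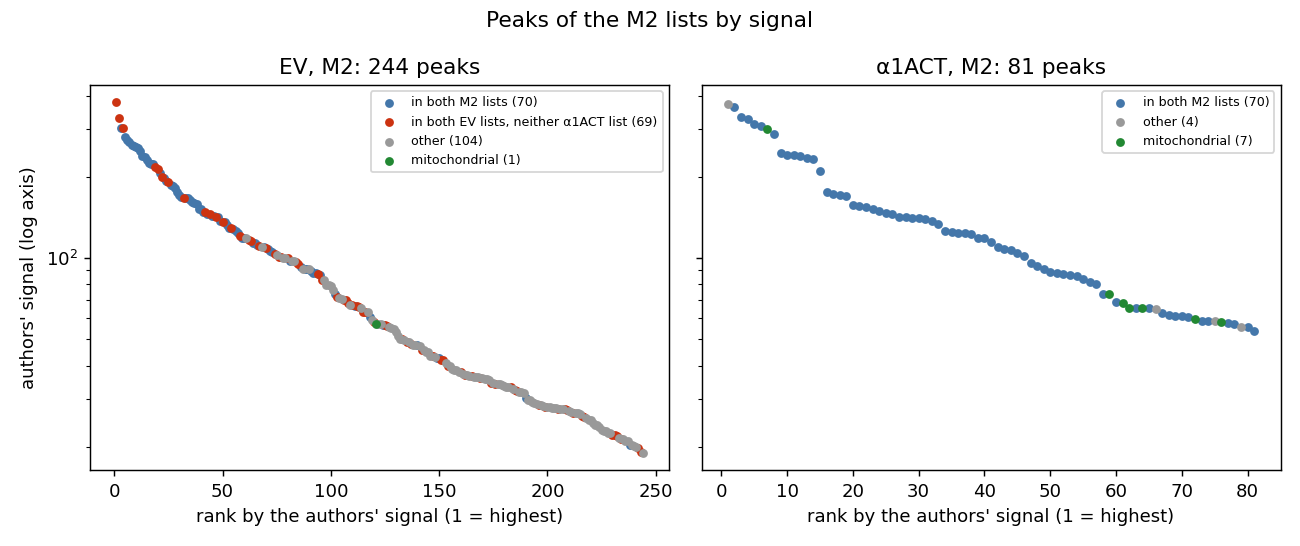
The authors' signal (log axis) of each peak against its rank in the EV M2 list (left, 244 peaks) and the α1ACT M2 list (right, 81 peaks), 1 point per peak, coloured by the lists that hold it. Shared peaks fill the upper part of the EV M2 list together with peaks that were in both EV lists and neither α1ACT list, and 6 of the 7 mitochondrial peaks lie low in the α1ACT M2 list.

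The 10 highest sites in α1ACT cells lay between 2.26 kb and 460.1 kb from the nearest listed TSS, the mitochondrial one left out. After the Tbcd site came one 460.1 kb from the TSS of Etv1, an ETS-family transcription factor, on chromosome 6 from 68522155 to 68522210, whose signal was 363. It had rank 2 in the α1ACT M2 list, 13 in the EV M2 list, 5 in the EV 1804 list and 4 in the α1ACT 1804 list. The site inside Efhb, an EF-hand protein gene, on chromosome 9 from 45202 to 45257, had ranks 3, 9, 3 and 2 in the same order of lists. A site on chromosome 9 from 50600835 to 50600890, 48.1 kb from the TSS of Bivm, had ranks 4, 8, 4 and 3. These sites ranked near the top of all 4 lists.

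Further sites in the upper 10 of the α1ACT M2 list were shared as well. The site on chromosome 17 from 90996774 to 90996829 lay 145 kb from the TSS of Gad2, which encodes a GABA-synthesising enzyme, and had ranks 5, 14, 10 and 5. On chromosome 11, the site from 23416235 to 23416290 lay 454 kb from the TSS of Ncam2, a neural cell adhesion gene, and had rank 6 in both M2 lists, 22 in the EV 1804 list and 28 in the α1ACT 1804 list. On chromosome 19, the site from 57577153 to 57577208 lay 5.05 kb from the TSS of Wwox, an oxidoreductase gene at a fragile site, and had ranks 8, 24, 14 and 10. Sites 211 kb from the TSS of Mei4, a meiotic recombination gene, and 25.6 kb from that of Tex33 completed the 10, at ranks 9 and 10. Of the 10 highest EV M2 peaks 7 were shared, among them sites whose nearest TSSs were those of the kinase gene Frk, the RNA polymerase I factor gene Rrn3 and the carboxylesterase gene Ces2c. Those 3 sites ranked 5, 7 and 10 with M2 in EV cells and 29, 13 and 14 with M2 in α1ACT cells.

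Within the 70 shared sites the order of signals was similar between the M2 lists. The rank correlation over these sites was 0.68 (Spearman's rho), given as a description, since the points are sites of 1 library per line and not replicates. Over the 69 sites in all 4 lists, rho was 0.69 for the M2 lists. The 3 pairs with the EV M2 list had the lowest values: its rho was 0.67 with the EV 1804 list and 0.59 with the α1ACT 1804 list. Among the other 3 lists rho was 0.83 between EV 1804 and α1ACT M2, 0.86 between α1ACT M2 and α1ACT 1804, and 0.92 between the 1804 lists of the 2 cell lines. The median shift of a shared site in rank was 10 places, and 36 of 70 sites moved by at most 10.

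**Figure D3:**
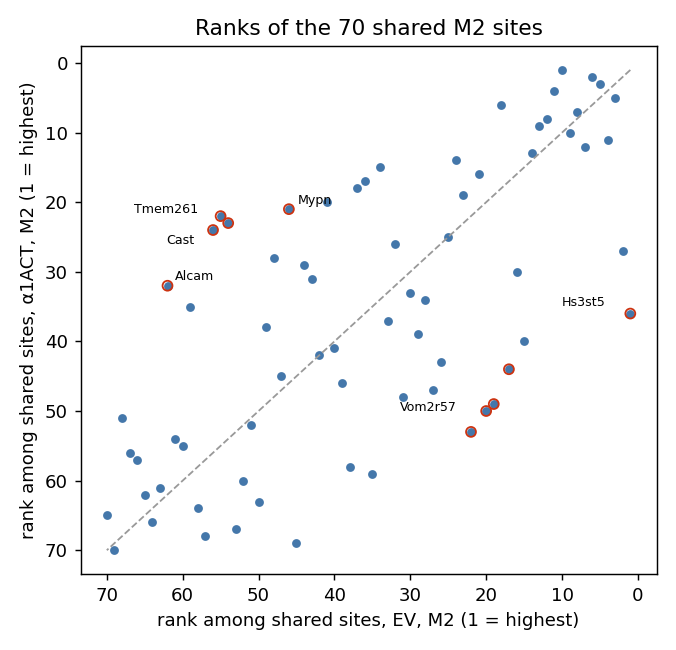
Rank of each of the 70 shared sites among the shared sites by signal in the EV M2 list (x axis) and the α1ACT M2 list (y axis), with the line of equal rank dashed. Circled are the 5 sites that stood most places higher and the 5 that stood most places lower in α1ACT cells, some named by the nearest listed gene; the site in Hs3st5 moved from rank 1 to rank 36.

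The largest falls in rank were at sites on chromosomes 1, 7 and 20. The site inside Hs3st5, a heparan sulfate sulfotransferase gene, on chromosome 20 from 42152371 to 42152426, ranked 1 of 70 in EV cells and 36 of 70 in α1ACT cells. In the whole lists it had rank 28 with 1804 in EV cells and rank 35 with 1804 in α1ACT cells, near its rank of 38 in the α1ACT M2 list. A site on chromosome 7 from 22474572 to 22474627, 625 kb from the TSS of the vomeronasal receptor gene Vom2r57, went from 20 to 50. The other 3 lay within 1 stretch of chromosome 1 between 187729403 and 188343374, whose nearest listed genes, the small GTPase gene Rras2 and the coat protein gene Copb1, were 1751 kb or more away. They went from 19 to 49, from 22 to 53 and from 17 to 44. Their signals were 187, 176 and 198 in the EV M2 list and 88.2, 83.6 and 102 in the α1ACT M2 list. How the authors scaled the signal between lists is not stated, so only the ranks are compared.

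The largest rises were at single sites on 5 chromosomes. The site on chromosome 5 from 95679342 to 95679397, 410.0 kb from the TSS of Tmem261, went from 55 to 22. Another, on chromosome 2 from 1605291 to 1605346, 74.6 kb from the TSS of Cast, which encodes the calpain inhibitor calpastatin, went from 56 to 24. A site 827 kb from the TSS of the potassium channel gene Kcnk9 went from 54 to 23. A site 522 kb from the TSS of the adhesion gene Alcam went from 62 to 32, and one 37.3 kb from that of Mypn, a sarcomere protein gene, went from 46 to 21. Each had a higher rank in the α1ACT 1804 list than in the whole EV M2 list. In the order named, their EV M2 ranks were 86, 88, 81, 102 and 60. Their EV 1804 ranks were 27, 50, 39, 124 and 59, so all but the Alcam site also ranked higher there. For the Mypn site the EV ranks were nearly equal, 60 and 59. At the Alcam site the higher rank was seen in α1ACT cells only, with rank 47 in the α1ACT 1804 list. At the Tmem261, Cast and Kcnk9 sites a higher rank was also seen with 1804 in EV cells.

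The lowest listed signal was 53.6 in the α1ACT M2 list and 19.0 in the EV M2 list, on scales that may differ. The unshared EV M2 peaks had a median signal of 39.3. Being unshared is therefore absence from a short list, and absence from the cells was not shown. The 174 EV M2 peaks that overlapped no α1ACT M2 peak fell into groups by the 1804 lists. In both 1804 lists were 64 of them, so these places were listed in α1ACT cells with the other antibody. Their best EV M2 rank was 68 and their median rank 161. In the EV 1804 list but in neither α1ACT list were 69, called EV-line peaks in what follows, with a best rank of 1 and a median rank of 116. A further 25 were in no other list, with a best rank of 61. The last 16 were in the α1ACT 1804 list only, and none ranked above 109 with M2 in EV cells. Of the 80 unshared peaks that the α1ACT 1804 list held, 64 overlapped one of its 272 highest peaks (80.0%, 69.6 to 88.1). The rest reached down to rank 40251.

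The 69 EV-line peaks included the strongest sites of EV cells. Of the 20 highest EV M2 peaks, 15 were shared and the other 5 belonged to this group. Of the 81 highest, 27 were unshared and 22 of these belonged to it. The top EV M2 site, at 38696185 to 38696240 of chromosome 13, reached a signal of 377 and held rank 21 in the EV 1804 list. The nearest listed TSS, 686 kb away, was that of Tsn, which encodes the nucleic acid binding protein translin. The nearest peak of either α1ACT list was 97.4 kb away. The site on chromosome 7 from 142709079 to 142709134, 30.3 kb from the TSS of the zinc finger gene Zfp385a, had rank 2 with M2 and rank 1 with 1804 in EV cells. That on chromosome 2 from 208470940 to 208470995, 14.3 kb from the TSS of the RNA-editing gene Adar, had ranks 4 and 2. In α1ACT cells no M2 peak lay within 20 Mb of either, and the nearest 1804 peaks were 20.0 and 22.6 kb away.

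Other high sites of the same group lay outside listed genes, 62.2 kb or more from the nearest TSS. A site on chromosome 10 from 11197947 to 11198002, 157 kb from the TSS of the drug exporter gene Abcc1, had rank 19 with M2 and rank 52 with 1804 in EV cells. One on chromosome 14 from 48274564 to 48274619, 67.3 kb from the TSS of Wdr82, a subunit gene of a histone methyltransferase complex, had ranks 22 and 40. One on chromosome 2 from 184492955 to 184493010, 62.2 kb from the TSS of the interleukin gene Il12a, had ranks 32 and 55. One on chromosome 1 from 188069319 to 188069374, 2091 kb from the TSS of Rras2, had ranks 20 and 49. The remaining 3 of the 10 highest unshared peaks were neighbours of sites already named, 2 on chromosome 13 near Tsn and 1 on chromosome 1 near Rras2, at EV M2 ranks 25, 44 and 42. The α1ACT 1804 list held 161730 peaks with a median distance of 2974.5 bp between neighbours. The median gap from the 69 sites to its nearest peak was 23.7 kb. These sites were defined by having no overlap with that list, so some gap is built in. A gap from a chosen site is also another measure than a distance between neighbouring peaks. For 66 of the 69 the gap was over 5 kb. One in 10 of the distances between neighbours in that list exceeded 50.7 kb, so gaps of this size also occurred elsewhere.

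These EV sites stood in dense clusters. With peaks joined over gaps of up to 10000 bp, the EV M2 list formed 39 clusters that held 124 of its 244 peaks (50.8%, 44.4 to 57.3). The α1ACT M2 list formed 4, which held 13 of 81 (16.0%, 8.83 to 25.9), and 7 of those 13 were the mitochondrial peaks. A longer list has more neighbours to join, and clusters were not counted at equal list length. The contrast between the lists may therefore depend on their lengths. In EV cells, 110 of the 174 unshared peaks were clustered (63.2%, 55.6 to 70.4), against 14 of the 70 shared (20.0%, 11.4 to 31.3). Of the 69 EV-line peaks, 63 were clustered (91.3%, 82.0 to 96.7).

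The cluster with most peaks lay near the start of chromosome 2, from 552728 to 557739, where 9 EV M2 peaks stood within 5.01 kb, 7 of them also in the EV 1804 list. The nearest listed TSS was that of Erap1, an aminopeptidase of antigen processing, 828 kb away. A cluster on chromosome 15 from 53950095 to 53961838 held 8 peaks over 11.7 kb, 205 kb from the TSS of the metalloprotease gene Adam28, and 7 of the 8 were in the EV 1804 list. On chromosome 17 from 46191687 to 46198609 stood 7 peaks, 314 kb from the TSS of Zfp322a, 4 of them in the EV 1804 list. None of these 24 peaks was in either α1ACT list. The α1ACT 1804 list held no peak within 48.2 kb of the chromosome 2 cluster or within 71.0 kb of that on chromosome 17.

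**Figure D4:**
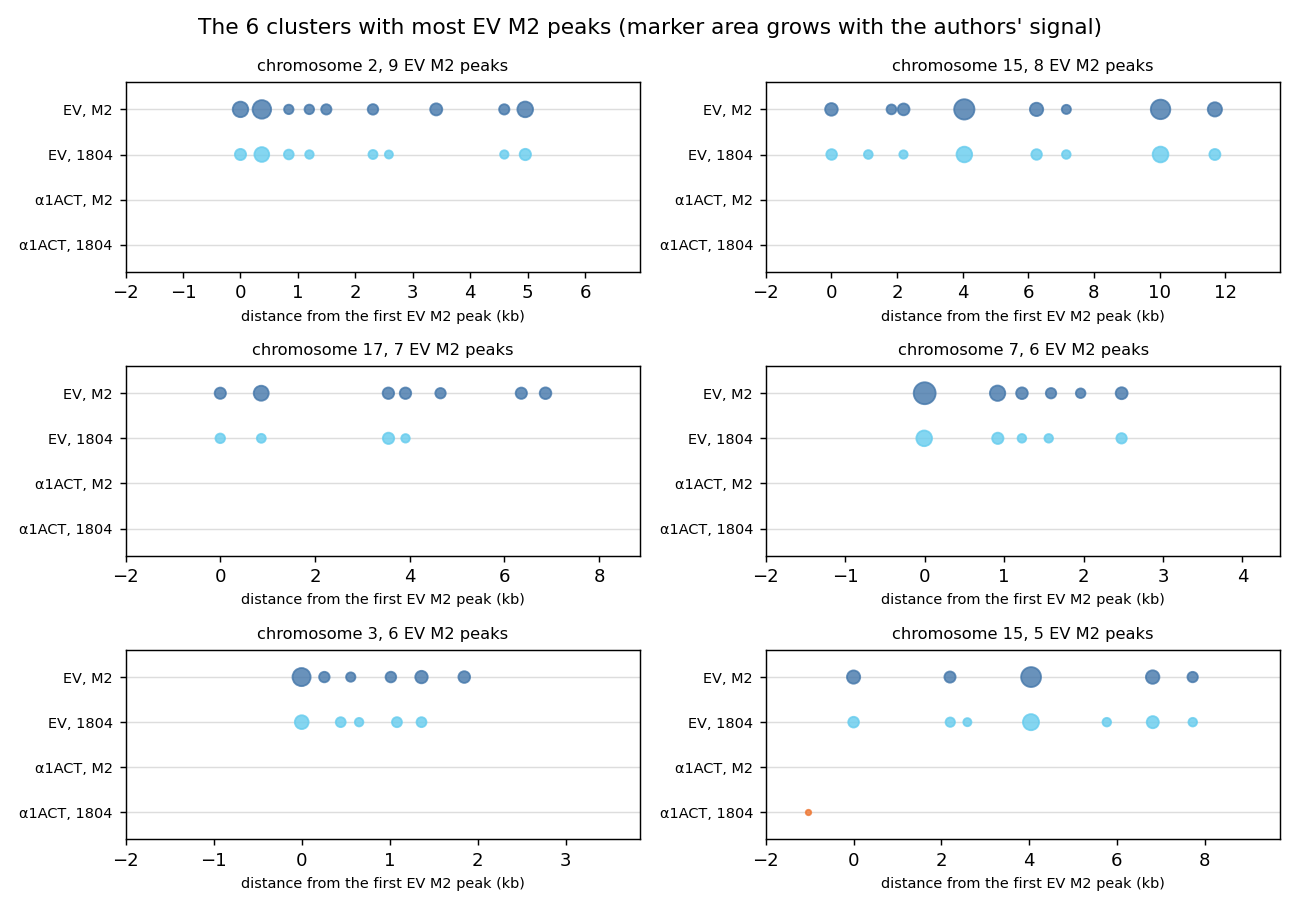
Peaks of all 4 lists around the 6 EV M2 clusters with most peaks, by distance in kb from the first EV M2 peak of each; rows are lists and the marker area grows with the authors' signal. Both EV lists fill each panel, and the α1ACT lists are empty but for 1 weak 1804 peak about 1 kb before the first peak of the 5-peak chromosome 15 cluster.

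A long stretch of chromosome 1 behaved differently, with both lines represented. Between 187623777 and 188353885, 730.1 kb in all, lay 26 EV M2 peaks, of which 8 were shared and 7 were EV-line peaks. The α1ACT M2 list held 9 peaks there, the EV 1804 list 24 and the α1ACT 1804 list 22. The 3 chromosomal clusters of the α1ACT M2 list were all on chromosome 1, 2 of them in this stretch, and each was a pair of shared peaks. The nearest listed genes were again Rras2 and Copb1. At 10 shared sites the EV M2 list also held an unshared companion peak within 1000 bp, and all 10 companions had a lower EV signal than the shared peak. Since the shared EV M2 peaks were mostly those of high signal, this order is no separate result. Of the 10 companions, 6 lay on chromosome 1 and 5 of those in this stretch.

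Neighbouring EV M2 peaks were often about 370 bp apart, a feature chosen after seeing the data. Of 63 start-to-start distances up to 1000 bp, 16 were between 350 and 390 bp (25.4%, 15.3 to 37.9), with a median of 366.5 bp, and these pairs lay on 9 chromosomes. The EV 1804 list, which shares most of these peaks, had 12 of 52 (23.1%, 12.5 to 36.8). The α1ACT 1804 list had 4244 of 57309 (7.41%, 7.19 to 7.62). The α1ACT M2 list had 4 such distances in all, none of them in that range. Examples were 372 and 365 bp in the chromosome 2 cluster, 370 bp in the 8-peak chromosome 15 cluster, and 366 and 373 bp in succession in a 6-peak cluster on chromosome 7, 699 kb from the TSS of Vom2r57. The smallest distance was between 199 and 205 bp in every list.

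**Figure D5:**
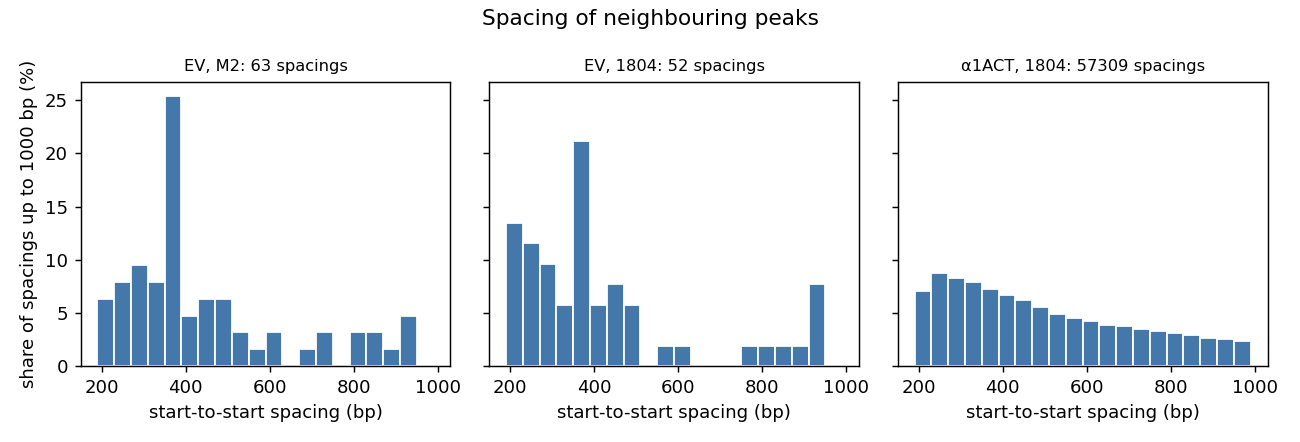
Share of start-to-start distances up to 1000 bp between neighbouring peaks, in bins of 40 bp, for the EV M2 list (63 distances), the EV 1804 list (52) and the α1ACT 1804 list (57309). The bin from 350 to 389 bp is the highest in both EV lists, at 25.4% and 21.2%, and no bin stands out from its neighbours in the α1ACT 1804 list.

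The lists also differed in how their peaks were spread over the chromosomes. Chromosome 1 held the most in each, 48 EV M2 and 23 α1ACT M2 peaks, with 21 shared. Chromosome 2 held 29 and 5, with all 5 shared. Chromosome 15 held 18 and 0, and the X chromosome 8 and 0. On chromosome 15, 12 of the 18 were EV-line peaks and 13 stood in clusters, while 5 were in the α1ACT 1804 list. On the X chromosome 5 of 8 were in the α1ACT 1804 list. Chromosomes 11 and 20 held 5 and 5 each, with 5 and 4 shared. In all, the α1ACT 1804 list held 6783 peaks on chromosome 15 and 9491 on the X chromosome, out of 161730. The α1ACT M2 list is far shorter, with 74 chromosomal peaks, so no conclusion is drawn from its lack of peaks on these chromosomes.

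A minority of the M2 peaks of each line lay inside listed genes. Gene spans and TSSs are those of 14390 genes in the authors' annotated table, which holds only genes assigned a peak of the α1ACT 1804 list, so other genes were not counted. These spans cover 24.0% of the chromosomes up to the last peak. Inside them lay 13 of 74 chromosomal α1ACT M2 peaks (17.6%, 9.70 to 28.2) and 22 of 243 EV M2 peaks (9.05%, 5.76 to 13.4). Of the shared sites 12 of 70 did (17.1%, 9.18 to 28.0), of the unshared EV M2 peaks 10 of 173 (5.78%, 2.81 to 10.4), and of the 69 EV-line peaks 1, in Cox11, an assembly factor gene of cytochrome oxidase. For the α1ACT 1804 list, on which the gene set itself depends, the share was 21.7%. The intervals of the α1ACT M2 peaks and of the shared sites include 24.0%, so their shares were not set apart from the span of the genes. Those of all EV M2 peaks and of the unshared ones lie below it. Many unshared peaks stood in clusters, and the intervals do not cover this.

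The genes that held a shared site had varied roles. Besides Efhb and Hs3st5 they were the calcium channel auxiliary subunit gene Cacna2d3, the kinase gene Map2k6, the phosphatase regulatory subunit gene Ppp2r2b, the lipid phosphatase family gene Mtmr7, the ubiquitin ligase gene March8, the focal adhesion gene Parva, and Sugct, Klhl6, Ccdc91 and Fndc3b. Among these the site in Mtmr7, on chromosome 16 from 54501287 to 54501342, ranked 22 with M2 in α1ACT cells and 53 in EV cells. The site in Cacna2d3, on chromosome 16 from 5611194 to 5611249, ranked 40 and 66. The site in Map2k6 ranked 73 of 81 and 238 of 244. Genes with an unshared EV M2 peak included Bbox1, an enzyme of carnitine synthesis, at rank 68, Mall at rank 101 and the calcineurin catalytic subunit gene Ppp3ca at rank 104. These genes are named for holding a peak and not for their signals.

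Within 1000 bp of a listed TSS there was no M2 peak of either line. A count of 0 bounds the share at 4.05% of 74 chromosomal α1ACT M2 peaks and 1.23% of 243 EV M2 peaks. The share of the chromosomes within 1000 bp or 10 kb of a listed TSS was not measured. The counts therefore do not show whether M2 peaks avoid TSSs. In the EV 1804 list 2 of 272 peaks lay that near (0.735%, 0.0892 to 2.63). The share was 5.57% in the α1ACT 1804 list, on which the gene set itself depends. The median distance was 191 kb for α1ACT M2 peaks, 272 kb for EV M2 peaks and 403 kb for the 69 EV-line peaks, against 129 kb in the α1ACT 1804 list. Joined over gaps of up to 1 Mb, the 69 peaks made 19 regions, with 12 peaks in a region of chromosome 15 and 10 in a region of chromosome 2. Neighbouring peaks have nearly the same distance. The value of 403 kb therefore rests on few places and does not show that EV-line regions lie farther from genes. The α1ACT M2 peaks nearest to a TSS were all shared: those of Efhb at 2256 bp, of Lgr4, a receptor of Wnt signalling, at 2379 bp, and of Tph1, which encodes tryptophan hydroxylase, at 4855 bp. The EV M2 peak nearest to a TSS was unshared, 2136 bp from that of the Fc receptor gene Fcgr2a, with rank 243. Within 10 kb of a TSS lay 4 of 74 α1ACT M2 peaks (5.41%) and 10 of 243 EV M2 peaks (4.12%). For the EV 1804 list it was 15 of 272 (5.51%), and for the α1ACT 1804 list 13.0%.

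From genes reported elsewhere as α1ACT targets, the nearest M2 peak was 4.34 Mb or more away. From the TSS of the antiproliferative gene Btg1 the nearest M2 peak of either line was 15.4 Mb away, from that of Grn, which encodes progranulin, 8.27 Mb, and from that of the host gene Cacna1a 21.1 Mb. From the calcium pump gene Atp2b2 the distance was 4.34 Mb in EV cells and 4.96 Mb in α1ACT cells. Such distances were not measured for all listed genes, so these values do not set the targets apart. Of 33 chromaffin and sympathetic genes typical of PC12 cells, 29 had a listed TSS and none held an M2 peak of either line. Over all 14390 listed genes 23 did (0.160%), so a count of 0 in lists of this length does not set these genes apart. Their nearest peaks lay at a median of 4.08 Mb in the EV list and, for the 27 on a chromosome with a peak, 8.52 Mb in the α1ACT list. Peak lists do not measure expression, so the identity of the cells was not checked.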

How the data were processed

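The authors deposited 1 peak list per precipitated library and 1 annotated table. No input list was used here, and the role of the inputs in peak calling is not given in the sources used here. From its column layout, each list is in narrowPeak form. The authors deposited a signal per peak, whose scaling between libraries is not stated, and a −log10 q-value, while the p column was not filled. Per the submitters' processing notes the build was rn5, and HOMER, ChIPseeker, DiffBind, BWA 0.7.5a and FastQC 0.11.2 were used. File names point to the spp peak caller. In the deposited M2 lists the −log10 q-value started at 1.32 (EV) and 1.51 (α1ACT). Depth is unknown.

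Starts were written 1-based. Overlaps of 1 bp or more were found with Python 3.11.15, numpy 2.4.6, pandas 2.3.3 and scipy 1.17.1, and the overlap, cluster and gene-span functions were tested on simulated peaks. Intervals are exact 95% binomial (Clopper-Pearson), for counting error only. A count of 0 is bounded by 3 counts. Neighbouring peaks are not independent. The table places some transcripts on unusual chromosomes, and its positions were used as given. Named sites were all unshared α1ACT M2 peaks, the 10 highest peaks of each M2 list and of the unshared EV M2 peaks, the 5 largest rises and falls in rank, near misses, the 3 largest clusters and the 3 peaks nearest a TSS per list; placeholder symbols were passed over, and other named sites were chosen after their values were seen. The members and lists were chosen with earlier results of these data known.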

Additional observations from a re-analysis of the deposited data

Results flagged for a closer look

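The number of peaks differed between the lines in opposite directions with the 2 antibodies. With M2 the α1ACT list was 0.332 times as long as the EV list, whereas with 1804 it was 595 times as long. Each value compares 2 libraries, and the difference between antibodies was not tested.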

How the results depend on the processing

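The share of α1ACT M2 peaks that were shared, 86.4%, was 95% among the higher-ranked 50% of each list, 94.6% without the mitochondrial genome and 66.7% when the EV M2 list was shortened to its 81 highest peaks. The share of EV M2 peaks, 28.7%, was 39.4% at a −log10 q of at least 2, 66.7% in the shortened list and 37.6% when peaks within 1000 bp were merged. The 69 EV-line peaks became 42 merged regions, and 22 peaks in the shortened list, where a shorter list bounds the count by construction. The settings for EV-line peaks and for spacing were chosen after seeing the data. Under the other settings the shares were 85.2 to 92.6% and 28.7 to 34.0%, the number of clusters was 3 to 4 in the α1ACT M2 list and 30 to 42 in the EV M2 list, the share inside genes was 17.6 to 23.1% and 8.64 to 11.6%, and rho was 0.66 to 0.68. No paired analysis was possible because each group holds 1 library, and no replicate could be left out. Precision is limited by 1 library per group and an unknown depth.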

Other observations

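The pair of clusters on chromosome 15 had peaks at nearly the same distances upstream of their highest peak, a comparison made after seeing the data. The highest peaks, with signals of 116 and 121 in the EV M2 list, lay 210.6 kb apart, at starts 53743503 and 53954145. Upstream, the first cluster held peaks 1848 and 4046 bp before its highest and the second 1850 and 4050 bp before its own. Downstream the distances were less alike, 2771 and 3683 bp in the first and 2202 and 3111 bp in the second. The signals of the 4 flanking peaks in order of position were 48.1, 32.6, 50.1 and 27.5 in the first cluster and 43.3, 37.0, 48.7 and 19.8 in the second. The second cluster held 3 further peaks without a counterpart in the first, 2220 bp before and 5982 and 7638 bp after its highest. All 8 of the flanking peaks named by signal were also in the EV 1804 list. Whether the sequences of the clusters are alike was not tested, since no rn5 sequence was used here.

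Peaks near chromosome starts made up a larger share of the M2 lists and the EV 1804 list than of the α1ACT 1804 list. Within 1 Mb of the first base of a chromosome lay 25 of 243 EV M2 peaks (10.3%, 6.77 to 14.8), 5 of 74 α1ACT M2 peaks (6.76%, 2.23 to 15.1), 25 of 272 EV 1804 peaks (9.19%, 6.04 to 13.3) and 1.65% of the α1ACT 1804 peaks. These windows make up 0.724% of the chromosomes up to the last peak. Most of the 25 EV M2 peaks came from few places. Runs on chromosome 2 from 504313 to 557739 and from 973816 to 978522 held 10 and 4, and a run on chromosome 12 from 157418 to 391904 held 6. The EV 1804 list had 8, 3 and 5 peaks in these runs. Peaks of a run are not independent, which the intervals do not cover, so a trait of chromosome starts in general was not shown.

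An olfactory or vomeronasal receptor gene had the nearest listed TSS for 26 of 243 EV M2 peaks (10.7%, 7.11 to 15.3) and 4 of 74 α1ACT M2 peaks (5.41%, 1.49 to 13.3). For the EV 1804 list it was 25 of 272 (9.19%, 6.04 to 13.3), and for the α1ACT 1804 list the share was 7.25%. Both values lay inside the intervals of the M2 lists. Reads can map to several copies in these gene families, and whether this bears on the shares was not tested.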
